A study of Gallus gallus with 2 samples.

Results

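The nuclear-encoded respiratory chain genes of the chicken thymus were taken by symbol as all genes beginning with NDUFA, NDUFB, NDUFC, NDUFS or NDUFV, SDHA to SDHD, UQCR, COX4 to COX8 or ATP5. This gave 73 genes of the 28951 in the matrices. They comprised 31 subunit genes of complex I, 8 complex I assembly factor genes (NDUFAF), 3 genes of complex II, 7 of complex III, 8 of complex IV and 16 of complex V. Complexes were assigned by symbol, so NDUFA4, which is also placed in complex IV, was counted under complex I.

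Thymus was taken from female chickens of 5 weeks, flash frozen and processed to single nuclei, and a 10x Genomics 3′ droplet library was made for each of 2 replicates. No treatment or genotype distinguishes the libraries. The labels do not say that they came from separate birds. The p-values thus measure only how far group differences vary between the 2 libraries, a spread that may be technical. A shift shared by all groups of a library does not enter them. The comparisons are between groups of nuclei within both libraries, each set against double positive-like nuclei, and between other cell classes and the T lineage.

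The respiratory chain sits in the inner mitochondrial membrane. Complex I takes electrons from NADH and complex II from succinate, complex III passes them through cytochrome c to complex IV, where oxygen is reduced, and complex V uses the proton gradient so built to make ATP. Most subunits are encoded in the nucleus, a few core ones in mitochondrial DNA. In mammals, thymocytes change their use of respiration and glycolysis as they pass from proliferating progenitors to small, resting double positive cells and on to selection.

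After filtering, replicate 1 held 4861 nuclei and 3844944 UMIs, with a median of 660 UMIs per nucleus, and replicate 2 held 5239 nuclei and 5470974 UMIs, with a median of 826. Of all barcodes, 13 occurred in both libraries. Clustering without the respiratory chain genes gave 16 clusters, 11 of them T lineage. The double positive-like (DP-like) cluster carried RAG1, RAG2, DNTT, CD8A and CD4 and held 1208 and 1647 nuclei in replicates 1 and 2. Gamma delta-like nuclei carried SOX13, TARP and BLK. The early DN-like cluster, named for early double negative cells, carried KIT and ERG, 2 of 9 such markers, and also S1PR1 and IL7R. The CD4 SP-like cluster, named for CD4 single positive cells, carried CCR7, IL7R and CD40LG, 3 of 6 such markers. CD4, S1PR1 and KLF2 were detected there but were not raised over the other nuclei, and CD4 was raised in the DP-like cluster. Strongly signalled-like nuclei carried NR4A3, TNFRSF9 and EGR3. The markers were not particular to these clusters. The HIVEP3 SOX4 cluster also carried NR4A3, TNFRSF9 and EGR3, and the GNLY SH3RF3 cluster carried 5 CD4 single positive markers, CCR7, IL7R and CD40LG among them, with 4 innate-like ones. These and the other T-lineage clusters whose markers gave no single stage are called by their leading genes. DP-like nuclei were the shallowest T-lineage group, with medians of 478 and 591 UMIs in replicates 1 and 2.

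The 73 genes were sparsely sampled. They held 10757 UMIs, 3831 in replicate 1 and 6926 in replicate 2, and the 10 genes with most UMIs held 54.5% of them. Complex I subunits gave 46.9% of the UMIs, complex I assembly factors 21.7%, complex V 15.6%, complex II 10.1%, complex III 3.3% and complex IV 2.44%. COX7A2, a small subunit of complex IV, was at 0 UMIs in both libraries. A total under 50 UMIs was found for 35 genes, and 26 genes had 100 or more.

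Libraries differed for several genes. Of the 63 genes with UMIs in both, 11 differed more than 4-fold in CPM (counts per 1e6 UMIs of the library or group). NDUFV1, the core subunit that binds NADH, had 51 UMIs in replicate 2 and 1 in replicate 1. NDUFA6 was at 0 UMIs in replicate 1 and had 27 in replicate 2, while UQCRHL had 12 UMIs in replicate 1 and 0 in replicate 2. Levels of such genes are therefore given per library.

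Longer genes gave more UMIs. Among the 69 members with a RefSeq position, the 26 genes of at least 5 kb had a median of 218 UMIs, against 24 UMIs for the 43 shorter genes, and Spearman's rho between length and UMIs was 0.466 across these genes, as a description. Differences in UMIs between genes are therefore not read as differences in expression. Among these members, 17 overlapped another RefSeq gene, NDUFA10, NDUFV2 and SDHB among them, and their reads could be split by the counting. Likewise ATP5A1W, the W-linked copy of the complex V alpha subunit, had 625 UMIs and its Z-linked copy ATP5F1AZ 80 UMIs, and the split of reads between near-identical copies is uncertain.

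Pooled over genes, complex IV was more often found with several UMIs of a gene in the same nucleus than complex I, II or V. Each gene was counted in each nucleus that held a UMI of it, which gives pairs of a gene and a nucleus. Complex IV genes had only 81 pairs in replicate 1 and 70 in replicate 2. Of these, 48.1% and 45.7% held 2 or more UMIs of that gene. The shares of pairs were 13.3% and 14.7% for complex I subunits and 9.9% and 10.1% for the assembly factors. For mitochondrial-encoded respiratory genes they were 59.1% and 59.4%, and for cytosolic ribosomal protein genes 70.1% and 56.1%. Mitochondrial ribosomal protein genes had 13.2% and 13.3%. Complex III had 55.8% and 17.9%, complex V 18.0% and 19.9% and complex II 11.6% and 11.9%. In both libraries the complex IV share thus lay nearer to that of the cytosolic ribosomal genes, and the complex I share nearer to that of the mitochondrial ribosomal genes.

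**Figure D1:**
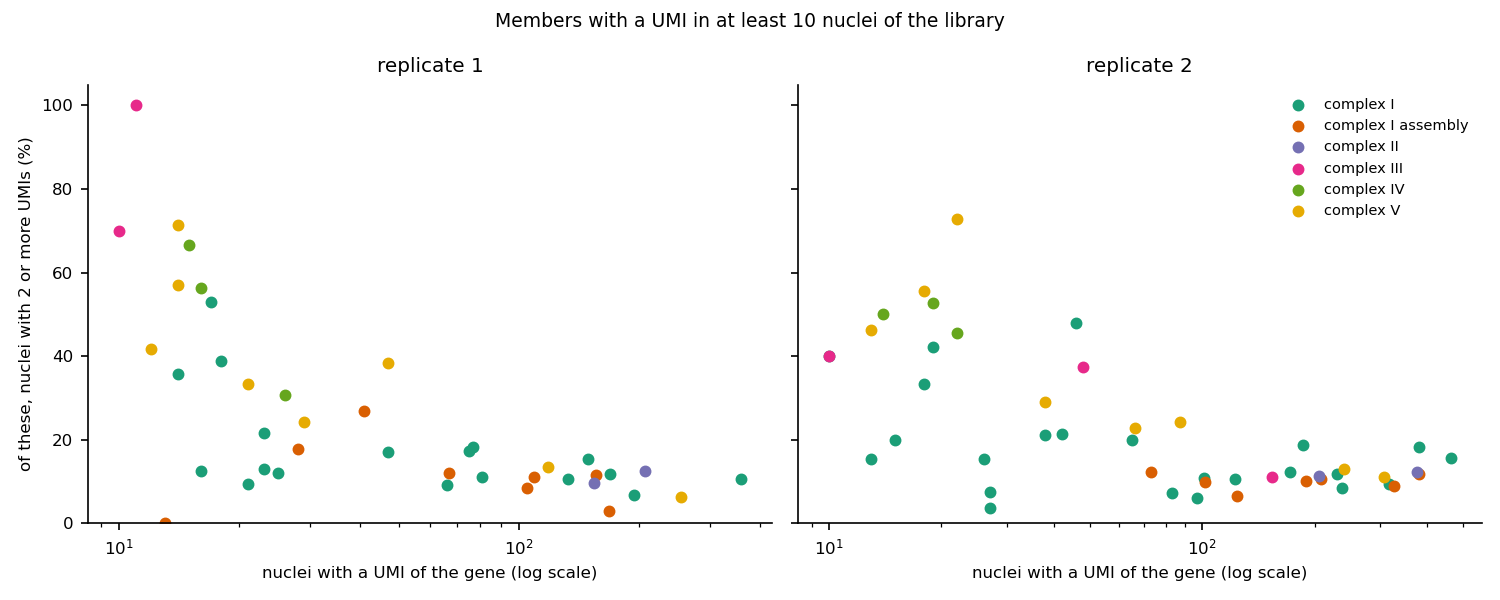
Share of nuclei with 2 or more UMIs of a gene (y, percent) among the nuclei with any UMI of it (x, log scale), for members found in at least 10 nuclei of a library; each point is a gene, coloured by complex, with 1 panel per library. Genes found in many nuclei lie low, while most complex III and IV genes and some complex I and V genes found in few nuclei lie high.

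DP-like nuclei had the lowest summed level of the 73 genes among T-lineage groups in each library. The other 10 groups lay between 749 and 1225 CPM in replicate 1, against 633 CPM in DP-like nuclei (exact 95% Poisson interval 572 to 698). In replicate 2 the other groups lay between 1119 and 1620.1 CPM, against 1044 CPM in DP-like nuclei (983 to 1107). In replicate 1 the interval of CD4 SP-like nuclei (615 to 905) overlapped that of DP-like nuclei. In replicate 2 those of strongly signalled-like nuclei (924 to 1343) and the ASPM CENPF mitotic cluster (1021 to 1230) did. Intervals cover counting error only. Within a library, the ratio of a group to DP-like nuclei ranged from 1.18 in CD4 SP-like nuclei to 1.94 in the CLGN HMCN1 cluster in replicate 1, and from 1.07 in strongly signalled-like nuclei to 1.55 in gamma delta-like nuclei in replicate 2. No p is given for a sum over the genes. In replicate 2 the lowest place rested in part on NDUFA13: without this gene the mitotic cluster had 927 CPM, against 1040.0 CPM in DP-like nuclei.

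The order of the other groups was not the same in the libraries. Gamma delta-like nuclei had 1197 CPM in replicate 1 and 1620.1 CPM in replicate 2, the highest mean of the groups (1409 ± 299 CPM, SD, n = 2). The HIVEP3 SOX4 cluster averaged 1307 ± 220 CPM and the UHRF1 RRM2 replicating cluster 1299 ± 126 CPM. CD4 SP-like nuclei had 749 CPM in replicate 1 and 1404 CPM in replicate 2, the lowest of the 10 groups in the first and above their median of 1349 CPM in the second. Neighbours in this order overlapped in their library values, and DP-like nuclei averaged 838 ± 291 CPM.

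**Figure D2:**
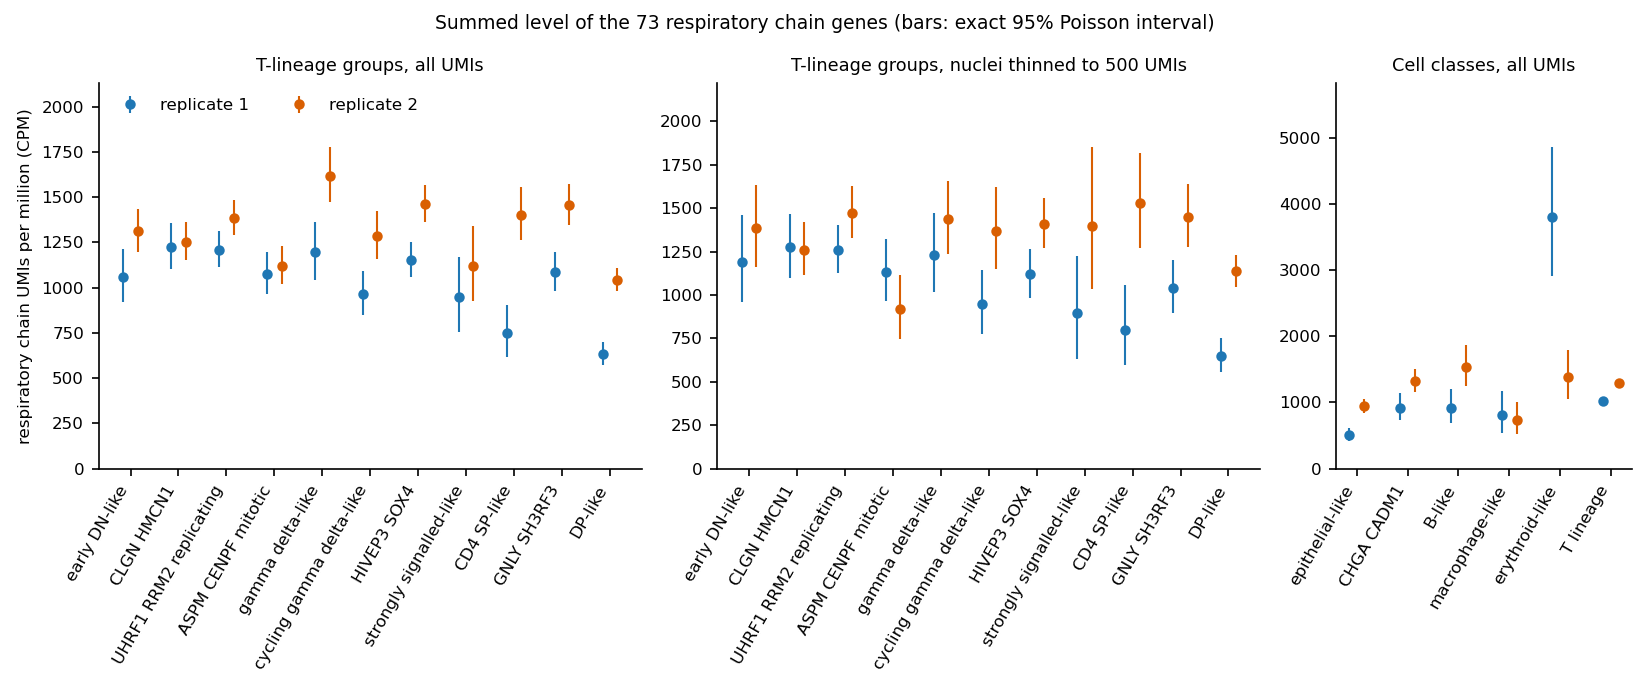
Summed respiratory chain level (y, CPM) by group (x) in replicate 1 and replicate 2, from all UMIs and with nuclei thinned to 500 UMIs for the T-lineage groups, and from all UMIs for the cell classes; bars are exact 95% Poisson intervals. DP-like nuclei are lowest within each library on all UMIs, at 633 and 1044 CPM, and erythroid-like nuclei differ most between libraries.

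At a matched depth of 500 UMIs the order was kept in replicate 1 and had 1 exception in replicate 2. At 1000 UMIs, 7 of 10 groups lay above DP-like nuclei in replicate 1 and 9 of 10 in replicate 2. With each nucleus of at least 500 UMIs thinned to 500, the other groups lay between 800.0 and 1274 CPM in replicate 1, against 650.4 CPM in DP-like nuclei. In replicate 2 the ASPM CENPF mitotic cluster had 917 CPM, below the 1136 CPM of DP-like nuclei, and the remaining 9 groups lay between 1259.8 and 1527 CPM.

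The same held within ranges of depth. Among nuclei of at least 400 and under 700 UMIs, the other T-lineage groups together had 1229 CPM in replicate 1 and 1489 CPM in replicate 2, against 627 and 1118 CPM in DP-like nuclei. Among nuclei of at least 700 and under 1200 UMIs, they had 1125 and 1335.5 CPM, against 694 and 1075 CPM. DP-like nuclei were lower in each of the 7 pairs of depth range and library that held both.

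**Figure D3:**
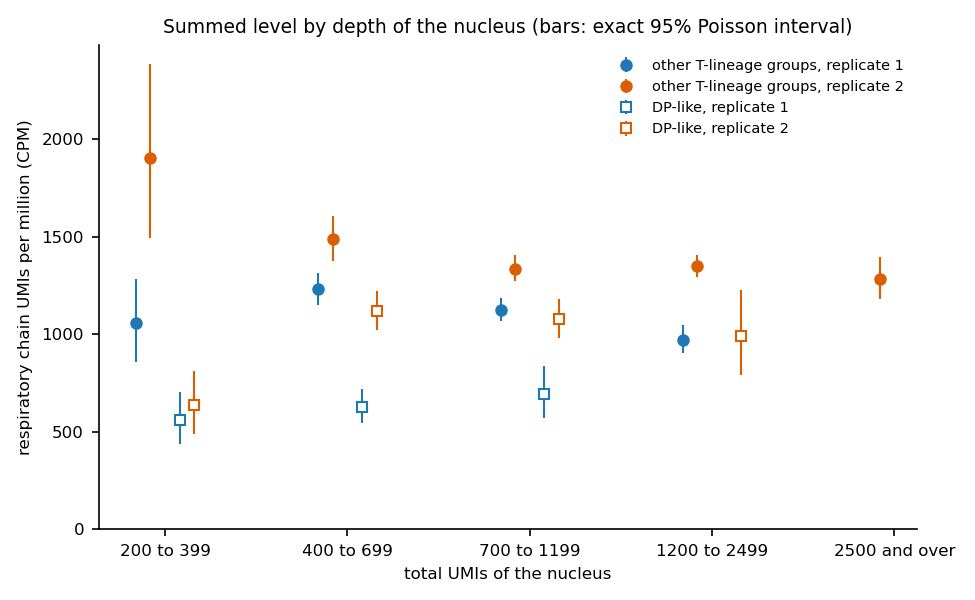
Summed respiratory chain level (y, CPM) by total UMIs of the nucleus (x) for the other T-lineage groups (filled circles) and DP-like nuclei (open squares) in each library, with exact 95% Poisson intervals. DP-like nuclei lie below the other groups of the same library in each depth range that holds both.

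Mitochondrial ribosomal protein genes were also lowest in DP-like nuclei in both libraries. They lay between 1343 and 1719.6 CPM in the other T-lineage groups of replicate 1, against 968 CPM in DP-like nuclei. In replicate 2 they lay between 1498 and 1907.5 CPM, against 1255 CPM in DP-like nuclei. Cytosolic ribosomal protein genes, which are sensitive to RNA carried over from the cytoplasm, were not lowest in DP-like nuclei over all depths: they lay between 251 and 856 CPM in the other groups of replicate 1, against 360.4 CPM in DP-like nuclei, and between 274 and 749 CPM in those of replicate 2, against 424 CPM. Within ranges of depth, however, they were lower in DP-like nuclei in 6 of the 7 pairs of range and library. Among nuclei of at least 400 and under 700 UMIs, they had 753 and 641 CPM in the other T-lineage groups of replicates 1 and 2, against 421 and 403 CPM in DP-like nuclei. The exception was replicate 2 at 700 to 1199 UMIs, with 319 CPM in the other groups, against 459 CPM in DP-like nuclei. Their part in the respiratory chain result was not tested.

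By complex, the assembly factors were lowest in DP-like nuclei in both libraries. They lay between 139 and 268 CPM in the other groups of replicate 1, against 69.3 CPM in DP-like nuclei. In replicate 2 they lay between 204 and 456 CPM, against 195 CPM. Complex I subunits lay between 264 and 605 CPM in the other groups of replicate 1, against 356 CPM in DP-like nuclei, and only CD4 SP-like nuclei were lower there. In replicate 2 they lay between 526 and 739 CPM, against 488 CPM. Complex II had 61.8 to 139.6 CPM in the other groups of replicate 1, against 85.0 CPM in DP-like nuclei, and 48.7 to 161 CPM in those of replicate 2, against 137 CPM. Complex II thus lay within the range of the other groups in both libraries. Complex V had 137 to 253 CPM in the other groups of replicate 1, against 92.9 CPM in DP-like nuclei, and 132 to 288 CPM in those of replicate 2, against 167 CPM, where 3 other groups were lower.

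Single genes were tested with edgeR's quasi-likelihood test on summed counts, 11 groups in 2 libraries, each group against DP-like nuclei. A filter on low counts kept 28 of the 73 members, among 6326 genes tested. Of 280 tests of members, 24 were higher and 2 lower at an adjusted p (Benjamini-Hochberg over all genes tested) under 0.05. Over all genes, 24.8% of tests were called, 15.7% higher and 9.05% lower, and of the member tests 9.29% were called. The median log2 fold change was 0.38 over the member tests and 0.07 over all genes, and 180 of the 280 member values were above 0, beside 33373 of 63260 over all genes. The values of a gene share the same DP-like sums, so its tests are not independent of each other. The calls fell on 8 genes. With nuclei thinned to 500 UMIs, 9 calls were higher, all of NDUFA13, and 1 lower. NDUFAF2, NDUFS3 and ATP5G3, called on all UMIs, did not pass the filter on low counts at that depth and had no test there. NDUFB5 and NDUFAF6, each called in early DN-like nuclei, were tested in 8 alternative settings, as these 3 genes were there, against 10 for NDUFA13.

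Early DN-like nuclei and cycling gamma delta-like nuclei had 6 of 28 members called each, the most of the groups. All 6 were higher in early DN-like nuclei, where 33.3% of all genes were called, and 4 were higher and 2 lower in cycling gamma delta-like nuclei, where 30.6% of all genes were. The replicating cluster and the GNLY SH3RF3 cluster had 3 members higher each, beside 26.7% and 28.0% of all genes. The mitotic cluster and gamma delta-like nuclei had 2 each, beside 24.0% and 21.7%. The HIVEP3 SOX4 cluster, the CLGN HMCN1 cluster, CD4 SP-like nuclei and strongly signalled-like nuclei had 1 each, beside 21.0%, 16.7%, 22.7% and 22.8%. In all 10 groups the share of members called was below that of all genes.

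**Figure D4:**
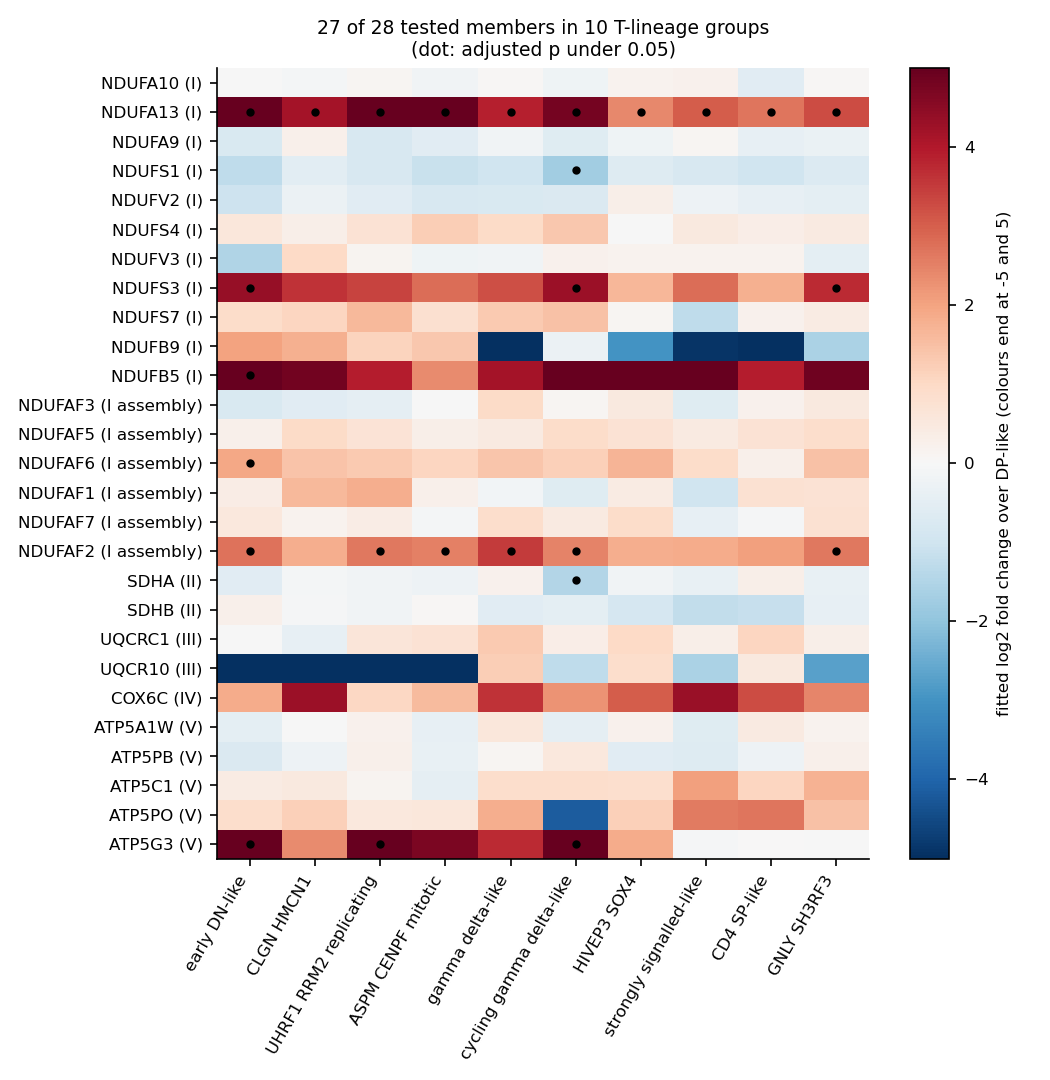
Fitted log2 fold change over DP-like nuclei (colour) of 27 of the 28 tested members (rows, with their complex) in 10 T-lineage groups (columns); dots mark an adjusted p under 0.05. NDUFA13 is called in all 10 columns, NDUFAF2 in 6, and most other rows hold no dot; strong colours without a dot are genes of few UMIs.

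NDUFA13 was the member that differed most widely. It encodes a complex I accessory subunit, known in mammals also as GRIM-19, a binding partner of STAT3, and lies on chromosome 28 at 3899411 to 3900493 (GRCg7b, RefSeq). It had 102 and 198 CPM in early DN-like nuclei of replicates 1 and 2, 118 and 195 CPM in the mitotic cluster, and 133 and 172 CPM in the replicating cluster, against 3.15 and 3.80 CPM in DP-like nuclei, which held 2 and 4 UMIs. Cycling gamma delta-like nuclei had 92.7 and 145 CPM. These 4 groups, the highest in replicate 1 and in replicate 2, were the T-lineage groups that carried any of the 8 cycling markers. The mitotic cluster and cycling gamma delta-like nuclei carried 7 each and early DN-like nuclei 5, but the replicating cluster only 1, TOP2A.

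The other groups were intermediate. The CLGN HMCN1 cluster had 47.0 and 99.9 CPM in replicates 1 and 2, gamma delta-like nuclei 16.2 and 115 CPM, and the GNLY SH3RF3 cluster 24.1 and 64.7 CPM. Strongly signalled-like nuclei had 22.5 and 48.7 CPM, the HIVEP3 SOX4 cluster 8.63 and 38.2 CPM, and CD4 SP-like nuclei 6.94 and 46.0 CPM. Both libraries of each group lay above both libraries of DP-like nuclei, and replicate 2 was higher than replicate 1 in all 11 groups. Several replicate 1 values rested on few UMIs, against 2 UMIs in DP-like nuclei. CD4 SP-like nuclei held 1 UMI, strongly signalled-like nuclei 2, gamma delta-like nuclei 3 and the HIVEP3 SOX4 cluster 4.

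NDUFA13 rose against DP-like nuclei in all 10 groups. The log2 fold change was 5.30 ± 0.54 (SE) in the mitotic cluster (edgeR adjusted p = 2.31e-07), 5.19 ± 0.53 in the replicating cluster (3.10e-07) and 5.08 ± 0.55 in early DN-like nuclei (3.82e-07). It was 2.39 ± 0.64 in the HIVEP3 SOX4 cluster, the smallest of the 10 (edgeR adjusted p = 0.0107). From summed counts, the level was 46.1-fold that of DP-like nuclei in early DN-like nuclei, with an exact 95% interval of 20.4 to 129-fold. The calls in CD4 SP-like and strongly signalled-like nuclei and in the HIVEP3 SOX4 and GNLY SH3RF3 clusters did not hold under every alternative setting.

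Of the genes beside NDUFA13, GATAD2A did not share its pattern. YJEFN3 had at most 4 UMIs in any group and library, too few to compare. GATAD2A, a subunit of the NuRD chromatin complex, had 173 and 215 CPM in early DN-like nuclei and 245 and 232 CPM in the mitotic cluster, against 246 and 260.2 CPM in DP-like nuclei. At 500 UMIs per nucleus, NDUFA13 had 118 and 222 CPM in early DN-like nuclei and 121 and 193 CPM in the mitotic cluster, against 3.76 and 3.74 CPM in DP-like nuclei. Without NDUFA13, the mean summed level of the other groups over both libraries had a median of 1098 CPM, against 835 CPM in DP-like nuclei. All 10 groups stayed above DP-like nuclei in that mean and in replicate 1, and 9 of 10, without the mitotic cluster, in replicate 2.

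NDUFS3, a core subunit of the peripheral arm, was called in 3 groups. It had 50.8 and 44.6 CPM in early DN-like nuclei, 38.6 and 51.9 CPM in cycling gamma delta-like nuclei and 45.6 and 17.2 CPM in the GNLY SH3RF3 cluster, against 0 and 2.85 CPM in DP-like nuclei, which held 0 and 3 UMIs. The log2 fold change was 4.34 in early DN-like nuclei (edgeR adjusted p = 0.0166), 4.27 in cycling gamma delta-like nuclei (0.0196) and 3.74 in the GNLY SH3RF3 cluster (0.0438). All 3 groups lay above DP-like nuclei in both libraries. The call in the GNLY SH3RF3 cluster was lost in 3 of 8 alternative settings, and the other 2 calls passed in every alternative that tested them. At 500 UMIs per nucleus NDUFS3 did not pass the filter on low counts, so none of the 3 was tested at that depth.

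NDUFB5, an accessory subunit of the membrane arm, was called in early DN-like nuclei. It had 1 and 16 UMIs there in replicates 1 and 2, against 0 UMIs in both libraries of DP-like nuclei, which makes it at least 17.2-fold higher with DP-like nuclei set to 3 counts over both libraries. Nearly all of that difference came from replicate 2, and the call was lost in 1 of 8 alternatives.

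NDUFA10, the member with most UMIs, did not pass the test in any group. It had 62.5 to 138 CPM in the other groups of replicate 1, against 107 CPM in DP-like nuclei, and 81.6 to 156 CPM in those of replicate 2, against 80.7 CPM. NDUFA9, an accessory subunit at the junction of the arms, had 20.3 to 146 CPM in the other groups of replicate 1, against 20.5 CPM in DP-like nuclei. In replicate 2 it had 9.73 to 79.0 CPM, against 97.8 CPM, so that DP-like nuclei were near the bottom in one library and the highest in the other.

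NDUFS1, the largest iron-sulfur core subunit, fell in cycling gamma delta-like nuclei. It had 11.6 and 41.5 CPM there, against 92.9 and 55.1 CPM in DP-like nuclei, a log2 fold change of -1.73 (edgeR adjusted p = 0.0430). The groups did not overlap, but this call was lost in 7 of 9 alternative settings.

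Among the assembly factors, NDUFAF2 was called in 6 groups. In mammals it binds a late intermediate of complex I and leaves before the complex is finished. It had 43.1 and 53.9 CPM in gamma delta-like nuclei, 25.4 and 30.7 CPM in early DN-like nuclei and 24.1 and 32.3 CPM in the GNLY SH3RF3 cluster, against 0 and 5.70 CPM in DP-like nuclei, which held 0 and 6 UMIs. The log2 fold change was 3.50 in gamma delta-like nuclei (edgeR adjusted p = 0.00355), and lay between 2.47 and 2.70 in the other 5 groups called, which included the replicating, mitotic and cycling gamma delta-like ones. Of these calls, the one in gamma delta-like nuclei passed in every alternative that tested it, and each of the other 5 was lost in 1 to 3 alternatives. At 500 UMIs per nucleus NDUFAF2 did not pass the filter on low counts, so none of the 6 was tested at that depth. NDUFAF2 overlaps SMIM15 on chromosome Z, so its reads could be split.

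NDUFAF6, another assembly factor, had 50.8 and 75.3 CPM in early DN-like nuclei, against 3.15 and 22.8 CPM in DP-like nuclei. It rose there by a log2 fold change of 1.92 (edgeR adjusted p = 0.0273), a call lost in 2 of 8 alternatives. NDUFAF5 had 24.8 to 72.4 CPM in the other groups of replicate 1, against 3.15 CPM in DP-like nuclei, and 41.8 to 81.3 CPM in those of replicate 2, against 59.8 CPM. It passed the test in no group, and DP-like nuclei were lowest in replicate 1 only. NDUFAF3 and NDUFAF1, with 606 and 288 UMIs in all, were not called in any group either.

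Of complex II, SDHA, the flavoprotein that oxidizes succinate, fell in cycling gamma delta-like nuclei. It had 23.2 and 41.5 CPM there, against 45.6 and 97.8 CPM in DP-like nuclei, a log2 fold change of -1.46 (edgeR adjusted p = 0.0245), and the groups did not overlap. This call was lost in 1 of 9 alternatives. SDHB, the iron-sulfur subunit, had 12.9 to 81.2 CPM in the other groups of replicate 1, against 39.4 CPM in DP-like nuclei, and was not called. SDHD, a membrane anchor, had 3 UMIs in all.

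Complexes III and IV gave few values to test. UQCRC1, a core protein of complex III, had 202 UMIs in all and passed in no group, nor did the small subunit UQCR10. UQCR10 was at 0 UMIs in early DN-like nuclei and in the CLGN HMCN1, replicating and mitotic clusters, against 0 UMIs in replicate 1 and 30 UMIs in replicate 2 of DP-like nuclei. Those 30 UMIs came from 1 library, and the gene was not called. UQCRB and UQCR11 had 20 and 14 UMIs.

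COX6C was the only complex IV gene tested. Its fitted log2 fold change was above 0 in all 10 groups, none called, with 1 UMI in replicate 1 and 0 in replicate 2 of DP-like nuclei. COX4I1, which encodes the largest nuclear subunit, had 64 UMIs in all, COX6A1 58 UMIs and COX5A 40 UMIs. Of the paralogue groups, COX7A2L had 17 UMIs and COX7A2 none, and COX7B had 10 UMIs, all in replicate 1. No second COX4I or COX6A gene and no COX8 gene was among the members.

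In complex V, ATP5G3 was called in 3 groups. It is one of the genes for the c subunit that forms the rotor ring. It had 50.8 and 36.3 CPM in early DN-like nuclei (10 and 13 UMIs), 11.6 and 17.3 CPM in cycling gamma delta-like nuclei and 10.6 and 11.9 CPM in the replicating cluster, against 0 UMIs in both libraries of DP-like nuclei. With DP-like nuclei set to 3 counts over both libraries, it was at least 23.3-fold, 8.22-fold and 6.38-fold higher in those groups. The call in early DN-like nuclei passed in every alternative that tested it, and the other 2 calls were each lost in 2 alternatives. With 53 UMIs in all, ATP5G3 passed the filter on low counts through early DN-like nuclei, the group where it was high. Its tests therefore give no support independent of that level. At 500 UMIs per nucleus ATP5G3 did not pass the filter on low counts, so none of the 3 was tested at that depth. ATP5G3 was also at 0 UMIs in CD4 SP-like and strongly signalled-like nuclei and in the GNLY SH3RF3 cluster. A second c subunit gene, ATP5MC1, had 21 UMIs in all.

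The other complex V genes tested passed in no group. ATP5A1W had 25.4 to 119 CPM in the other groups of replicate 1, against 42.5 CPM in DP-like nuclei, and 37.1 to 103.6 CPM in those of replicate 2, against 69.3 CPM. ATP5PB, a peripheral stalk subunit, had 0 to 38.6 CPM in the other groups of replicate 1, against 15.7 CPM, and 19.5 to 89.8 CPM in those of replicate 2, against 43.7 CPM. DP-like nuclei lay within both ranges. The gamma subunit gene ATP5C1 and ATP5PO, which encodes the stalk subunit that confers oligomycin sensitivity, were not called either.

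Regulators of mitochondrial biogenesis differed between the groups in both directions. Of the 12 genes of that list, 9 were tested, with 24 of 90 tests higher and 12 lower, so that 40.0% of tests were called, beside 24.8% over all genes. The higher calls fell on 4 genes and the lower ones on 2. GABPB1, the partner of GABPA in a factor that binds many respiratory chain promoters in mammals, rose in all 10 groups. It had 81.2 and 100.3 CPM in cycling gamma delta-like nuclei and 77.6 and 71.7 CPM in the mitotic cluster, against 7.87 and 2.85 CPM in DP-like nuclei, and the log2 fold change in the first was 3.82 ± 0.65 (edgeR adjusted p = 1.27e-04). Every library of the other groups lay above both of DP-like nuclei, and at 500 UMIs per nucleus 5 of the 10 groups passed. MYC rose in 8 groups, with 113 and 107 CPM in strongly signalled-like nuclei, against 0 and 5.70 CPM in DP-like nuclei, and in 5 groups at 500 UMIs.

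PPARGC1A, a coactivator of mitochondrial biogenesis, fell in 8 groups. It was at 0 UMIs in both libraries of strongly signalled-like nuclei and had 8.04 and 6.47 CPM in the GNLY SH3RF3 cluster, against 293 and 225 CPM in DP-like nuclei (186 and 237 UMIs). The log2 fold change in the GNLY SH3RF3 cluster was -5.46 ± 0.55 (edgeR adjusted p = 3.57e-07). The CLGN HMCN1 cluster had 530.2 and 504 CPM and early DN-like nuclei 289 and 293 CPM, and neither was called. DP-like nuclei thus combined the lowest summed respiratory chain level with one of the 3 highest PPARGC1A levels.

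**Figure D5:**
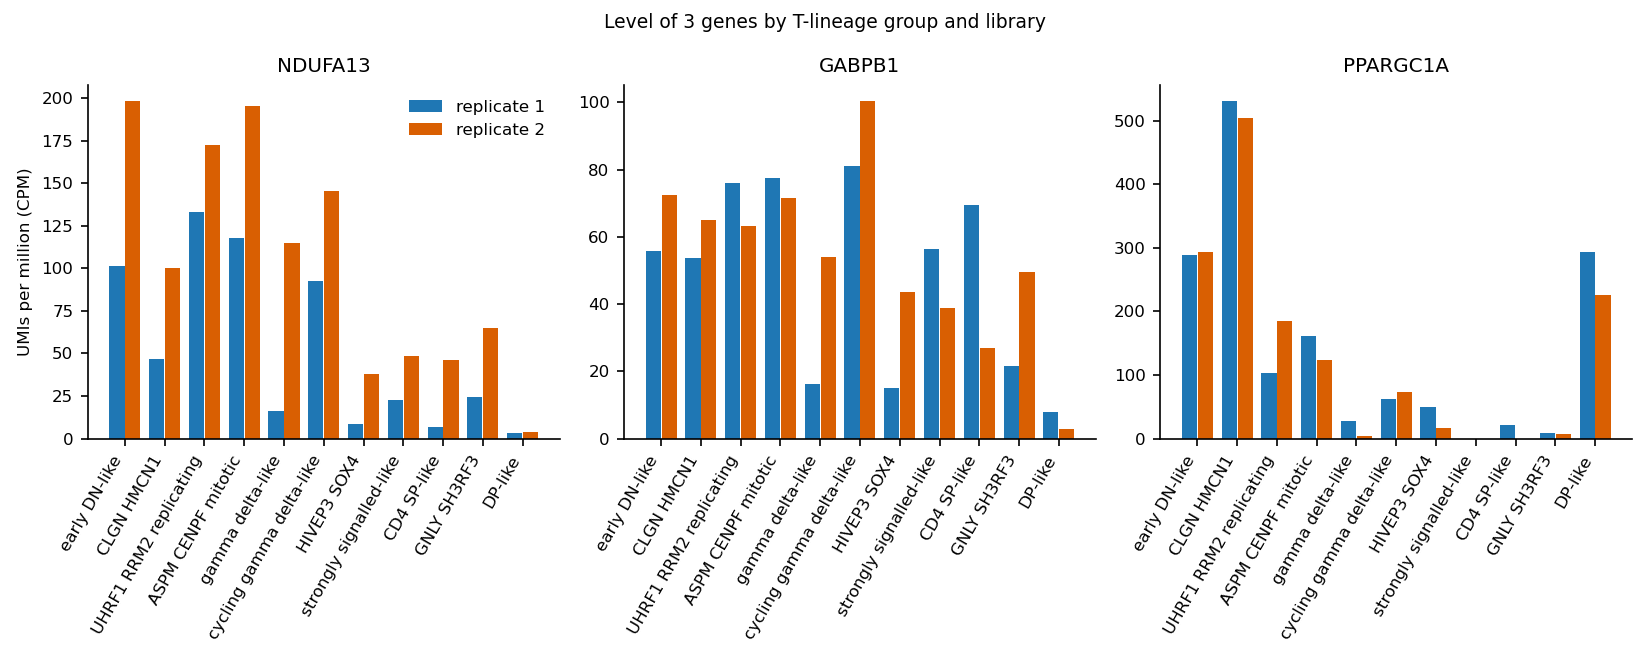
Levels (y, CPM) of NDUFA13, GABPB1 and PPARGC1A in the T-lineage groups (x), 1 bar per library. NDUFA13 and GABPB1 are lowest in DP-like nuclei, at or below 7.87 CPM, while PPARGC1A reaches 293 CPM there and is at 0 in strongly signalled-like nuclei.

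The remaining lists were counted in the same fit, and in each of them the share of tests called was below the 24.8% of all genes. Mitochondrial ribosomal protein genes had 57 higher and 7 lower of 360 tests (17.8% called), among them MRPL39, higher in 8 groups and in 3 at 500 UMIs per nucleus, and MRPL9, lower in 4, and MRPL48, higher in 2. Tricarboxylic acid cycle genes had 19 higher and 2 lower of 130 tests (16.2%). PDHB, a subunit of pyruvate dehydrogenase, and FH, fumarate hydratase, were each higher in 6 groups and OGDH in 5, which became 2 for OGDH at 500 UMIs and 0 for FH with at least 400 genes per nucleus. Cytochrome c and carrier genes had 6 higher of 30 tests and none lower, from VDAC1, an outer membrane channel higher in 5 groups, and VDAC2, higher in 1. The VDAC2 call, in early DN-like nuclei, rested on 4 and 39 UMIs in replicates 1 and 2. It was kept with DESeq2 but lost with at least 400 genes per nucleus. Other assembly factors had 4 higher, all NUBPL, which loads iron-sulfur clusters into complex I, and 3 lower, all COX10, an enzyme of haem A synthesis, of 130 tests (5.38%). COX10 was lower in 3 groups at 500 UMIs, but in 0 with DESeq2, at 1000 UMIs or with at least 400 genes per nucleus.

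Glycolysis genes had 10 higher and 2 lower of 50 tests (24.0%). The higher calls were all of PFKP, a phosphofructokinase, which had 294 and 254 CPM in early DN-like nuclei, against 47.2 and 25.6 CPM in DP-like nuclei. The lower ones were of HK1. They were lost at 500 and 1000 UMIs and also with DESeq2, without the filter on low counts, with doublets kept and with at least 400 genes per nucleus. Without the replicate block, 1 remained, as at Leiden resolution 1.5. Fatty acid oxidation genes had 11 higher and 3 lower of 90 tests (15.6%), with HADHB higher in 3 groups and ECHS1 lower in 1. CPT1A, which brings fatty acids into mitochondria, was higher in 8 groups, in 6 at 500 UMIs per nucleus and in 2 at 1000 UMIs. Cytosolic ribosomal protein genes had 7 lower of 110 tests (6.36%) and none higher, from RPL34 in 6 groups and RPL21 in 1. None of 20 tests of mitochondrial-encoded genes passed.

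Across cell classes the summed level was lower in epithelial-like and macrophage-like nuclei. Epithelial-like nuclei, marked by FOXN1 and EPCAM and with medians of 2249 and 3445.5 UMIs the deepest class, had 510.3 CPM in replicate 1 and 944 CPM in replicate 2, against 1017 and 1289.6 CPM in T-lineage nuclei. Macrophage-like nuclei had 813 and 741 CPM. Both libraries of these classes lay below both of the T lineage. B-like nuclei had 920.4 and 1535 CPM and the unnamed CHGA CADM1 cluster 918 and 1324.5 CPM, which overlapped T-lineage nuclei. That cluster carried 5 of 9 thymic epithelial markers, EPCAM among them, beside markers of other classes. Epithelial-like nuclei carried 6 of the 9.

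The macrophage-like values were 29 and 39 UMIs, and at 500 UMIs per nucleus macrophage-like nuclei had 1187.5 and 923 CPM, against 1051.5 and 1309 CPM in T-lineage nuclei, which overlapped. Epithelial-like nuclei kept the lower level at that depth, with 539 and 979 CPM. Complex V in epithelial-like nuclei had 14.6 and 129 CPM, from 3 and 47 UMIs, against 173 and 191 CPM in T-lineage nuclei. Complex II had 160.4 and 161 CPM in epithelial-like nuclei, against 108 and 119.5 CPM in T-lineage nuclei, the reverse order. Neither pair overlapped. The complex II difference came from SDHB, with 155.5 and 84.8 CPM, against 38.7 and 38.3 CPM in T-lineage nuclei. SDHA went the other way, with 4.86 and 76.6 CPM, against 68.9 and 81.0 CPM.

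Erythroid-like nuclei, led by haemoglobin genes, had 3801 CPM in replicate 1 and 1385.5 CPM in replicate 2, from 26 and 33 nuclei and 63 and 57 UMIs. Replicate 1 was far above T-lineage nuclei, at 1017 CPM, and replicate 2 little above theirs, at 1289.6 CPM. Mitochondrial-encoded genes moved with this: they had 5912.5 and 170.1 CPM in erythroid-like nuclei, against 47.4 and 19.3 CPM in T-lineage nuclei, and their part in the result was not tested.

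The class fit could test few members. The filter kept 3 of 73, NDUFA13, NDUFS1 and NDUFS3, since the smallest sums held few UMIs, among 3064 genes tested, 21.5% of whose tests were called. None of the 15 member tests passed with edgeR, none passed with DESeq2, and none had an unadjusted p under 0.05. The smallest adjusted p was 0.137, for NDUFA13 in epithelial-like nuclei, which held 0 and 7 UMIs, with 19.2 CPM in replicate 2, against 52.3 and 92.1 CPM in T-lineage nuclei. Differences between classes in the other 70 genes were not tested.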

How the data were processed

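The authors deposited whole-number UMI counts, 1 matrix per library, made with Cell Ranger 7.0.1 on GRCg7b, per the submitters' processing notes. Per the labels' protocols, only protein-coding genes and long non-coding RNAs were annotated. Matrix names refer to CellBender, which subtracts free RNA, so a 0 can reflect removal; the sources used here do not give its settings. No deposited annotation of the nuclei was used here. The members and gene lists were chosen with earlier results of these data known.

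Barcodes under 200 detected genes (1393 and 476) or over 5% mitochondrial UMIs (0 and 1) were left out; the 6% highest doublet scores per library (310 and 334) were removed. Clustering used 2000 variable genes without members or pathway lists, 30 components, 15 neighbours and Leiden resolution 1 (leidenalg 0.10.2). Clusters were named by hand from marker lists. Names may differ from the study's. Counts were summed per library and group of at least 20 nuclei and tested with edgeR 4.0.16 in R 4.3.3 (TMM, filterByExpr, two-sided quasi-likelihood test, library as block, 10 and 5 residual degrees of freedom for T-lineage groups and classes). The block pairs sums made from the same library. Adjusted p-values follow Benjamini and Hochberg over all tested genes that were not clustering features. SEs come from the F statistic. Genes varying with clustering features in the same nuclei are not independent of the clusters. Named were the 4 members with most UMIs per complex, called members, paralogue groups, members at 0, and up to 3 called genes per other list. A member is not reported here by name. On simulated counts, 163 of 184 genes changed 4-fold in the HIVEP3 SOX4 contrast were called, with 8 others. The simulation gave every gene the same fixed dispersion and no shift between libraries, and changed only genes that passed the filter. It therefore does not give the sensitivity for the members or for smaller groups. Alternatives covered scaling, DESeq2 1.42.0, filters, depth, doublets, clustering and single libraries.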

Additional observations from a re-analysis of the deposited data

How the results depend on the processing

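DP-like nuclei kept the lowest mean summed level on all UMIs, at 500 UMIs, with doublets kept, with 400 genes per nucleus, at both other resolutions and without assembly factors, NDUFA10 or NDUFA13 (the last chosen after its values were seen); at 1000 UMIs, 9 of 10 groups were above them. Within single libraries the order held less often. In replicate 2, 9 of 10 groups were above DP-like nuclei without NDUFA13, at 500 UMIs, with 400 genes and at 1000 UMIs. In replicate 1, 7 of 10 were above at 1000 UMIs. At 1000 UMIs without NDUFA13, 6 of 10 were above in replicate 1 and 8 of 10 in replicate 2. With 400 genes per nucleus, 7 of 10 were above in replicate 2 without NDUFA13, and 8 of 10 without assembly factors. At the finer clustering resolution without NDUFA13, 7 of 9 were above in replicate 2. In replicate 1 the same settings gave 10 of 10, 9 of 10 and 9 of 9. Without NDUFA10 the lowest other group of replicate 2 and DP-like nuclei were level, at 963 CPM each. With all genes and UMIs, leaving out a library gave 633 to 1044 CPM in DP-like nuclei and 1081 to 1349 CPM as the median of the other groups, all 10 of them above. That median was 1213 CPM, and 942 CPM without assembly factors. At Leiden resolution 0.6, 6 of 6 groups were above.

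The 24 higher calls became 9 at 500 UMIs and 6 at 1000 UMIs, all of NDUFA13, and 15 with 400 genes per nucleus. At 500 and 1000 UMIs, NDUFAF2, NDUFS3 and ATP5G3 did not pass the filter on low counts and had no test. NDUFB5 and NDUFAF6 were tested in 8 alternatives in early DN-like nuclei, as those 3 genes were, against 10 for NDUFA13. NDUFA13 itself had 10 calls on all UMIs, 9 at 500 UMIs and 6 at 1000 UMIs. The fall in calls thus mostly reflects which members could be tested. These settings use fewer nuclei or UMIs. The 2 lower calls became 1 with DESeq2 size factors, 1 with DESeq2, 1 at 500 UMIs, 1 with 400 genes and 1 at resolution 1.5, 0 at 1000 UMIs, 0 at resolution 0.6, and 8 without a filter on low counts. Without the replicate block, 18 calls were higher and 1 lower. In the class fit, with no call in the main setting, higher calls numbered 1 without the filter, 1 with doublets kept and 1 with 400 genes, and lower calls 7 without the filter and 3 with 400 genes. The cause was not tested. Of the 26 calls, 10 passed in every alternative that tested them, none reversed, and none reversed within 1 library. GABPB1 was higher in 5 of 10 groups at 500 UMIs, and PPARGC1A was higher in 1 group and lower in 7. Depth limits many members: 35 of 73 had under 50 UMIs, and a DP-like level near 0 rests on at most 6 UMIs for NDUFA13 and NDUFAF2.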
